A study of Mus musculus with 48 samples.

Results

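Il4ra and Il13ra1 encode receptor chains for interleukin 4 and interleukin 13. They were taken by gene symbol from the array annotation, which gives each of them 1 probe, and are 2 of the 10739 genes that could be tested. The pair was chosen on measured values of these data, among them the Il4ra level in wild-type cells given murine oncostatin M for 6 h. That effect and the differences built on it are therefore given with their errors and without a p-value.

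RNA came from primary osteoblasts, cells that form bone, grown from the calvaria (skull cap) of Osmr knockout (KO) and wild-type (WT) mice, all of C57BL/6 background and cousin-bred. Osmr encodes the specific chain of the oncostatin M receptor (OSMR). The cells had been frozen, were thawed and kept for 17 days in differentiation medium, and then received a ligand at 10 ng/ml, or none (control), for 6 h or 1 h. The ligands were oncostatin M of the mouse (mOSM), oncostatin M of human sequence (hOSM) and leukemia inhibitory factor, called mLIF here. In each genotype this gives the groups mOSM, hOSM, mLIF and control at 6 h and the same groups at 1 h, 16 groups of 3 arrays and 48 arrays in all. The design states that in mouse cells hOSM and LIF signal through the LIF receptor (LIFR) alone, whereas mOSM can use OSMR and LIFR, so the ligands and genotypes separate the receptors. The labels disagree on the LIF, which titles and design call mouse and the treatment protocol human. The design text and the labels also disagree on the number of thawing occasions. A culture here means the arrays of a genotype that carry the same replicate number in their titles. Whether the 3 cultures of each genotype were from different animals is not stated, and p-values cover only the spread among these cultures. Those with the culture as a block leave out the level that the arrays of a culture share.

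The receptor chain encoded by Il4ra binds interleukin 4. It joins either the common gamma chain, encoded by Il2rg, or the chain encoded by Il13ra1, and the receptor formed with the Il13ra1 chain responds to interleukin 4 and interleukin 13. Receptor-bound JAK kinases then activate the transcription factor STAT6. In bone, both cytokines are known to act on osteoblasts and to restrain the formation of osteoclasts.

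Osmr itself averaged 7.36 ± 0.74 on the normalized log2 scale in KO arrays and 10.68 ± 0.80 in WT arrays (SD, n = 24 each), and the highest KO array, at 8.75, lay below the lowest WT array, at 9.51. All 24 KO arrays were above background for the probe, whose position relative to the deletion is not known here. Of the osteoblast markers, 6 of 7 were measured above background, and Runx2 has no annotated probe. The labels call the cells osteocytes. Of the osteocyte markers, Sost was above background on 0 of 48 arrays, Dmp1 on 7 and Mepe on 12, while Phex and Pdpn were on all 48. The third KO culture stood apart from the other 5 cultures on the first principal component, which held 29.6% of the variance, with a mean score of 60.7 against -17.7 to -0.13. Fewer cells of a type and less RNA per cell cannot be told apart in such bulk samples.

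Il4ra lies on mouse chromosome 7 (chr7:125552271-125579474) and Il13ra1 on the X chromosome (chrX:36112108-36171262), both in the GRCm38.p6 gene table of RefSeq. The 250 bases before each start site, from RefSeq for the same build, are shown because both genes reached their highest level under the same ligand and time. They cover chr7:125552021-125552270 and chrX:36111858-36112107 and are printed on the plus strand, with GC boxes in capitals.
Il4ra: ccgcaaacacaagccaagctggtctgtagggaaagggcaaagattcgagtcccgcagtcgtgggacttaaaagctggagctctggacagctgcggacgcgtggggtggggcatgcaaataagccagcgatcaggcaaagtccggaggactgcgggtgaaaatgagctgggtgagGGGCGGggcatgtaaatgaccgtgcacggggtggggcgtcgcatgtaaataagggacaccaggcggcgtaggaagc
Il13ra1: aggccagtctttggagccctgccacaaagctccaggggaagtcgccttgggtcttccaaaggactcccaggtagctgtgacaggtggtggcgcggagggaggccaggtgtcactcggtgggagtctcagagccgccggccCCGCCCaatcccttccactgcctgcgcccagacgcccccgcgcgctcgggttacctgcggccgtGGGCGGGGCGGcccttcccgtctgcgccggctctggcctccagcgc
GC content was 59.6% for Il4ra and 70.8% for Il13ra1. A search on both strands for the GC box GGGCGG found 1 match before Il4ra, at -76, and 3 before Il13ra1, at -110 on the minus strand and at -46 and -41 on the plus strand, where the last 2 matches overlap. Of 32851 mouse promoters of this length, 32.7% hold a GC box. The STAT motif TTCNNNGAA, the STAT6 motif (the same ends with 1 more free base between them) and the AP-1 motif TGANTCA were not found in either window. They occur in 7.02%, 5.85% and 6.75% of all promoters of this length. A missing match says only that these letters are not in this window, and a match is a description of the sequence.

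In KO cultures given mOSM for 6 h, Il4ra was below background, as in KO controls, and Il13ra1 was above its own control in each of 3 cultures, by a mean difference that did not pass the test with or without the culture as a block. In WT cultures given mOSM for 6 h, after background correction, Il4ra was at least 13.7-fold higher than in controls and Il13ra1 was 9.91-fold higher. hOSM and mLIF at 6 h gave Il13ra1 levels 4.11-fold to 4.45-fold above controls in both genotypes. Under hOSM and mLIF the Il4ra levels of both times ran from 4.54 to 7.46, and 4 of 24 arrays were not above background. Without ligand, Il4ra was above background on 1 of 12 control arrays, while Il13ra1 was above it on every array.

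In KO cultures the Il4ra level was 4.83, 4.89 and 5.18 with mOSM for 6 h, against 5.03, 4.85 and 4.70 in KO controls at 6 h. Levels are normalized log2 signals of replicates 1, 2 and 3, and an array is above background where its deposited detection p is under 0.01. None of these 6 arrays was above background and the groups overlapped. The difference was 0.10 (95% interval -0.81 to 1.02, limma adjusted p = 1).

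In WT cultures the Il4ra level was 9.28, 9.31 and 9.65 with mOSM for 6 h, against 4.75, 5.13 and 4.63 in WT controls at 6 h. All 3 mOSM arrays were above background and 0 of 3 control arrays were, and the groups lay far apart. The difference was 4.57 ± 0.45 (SE), and since no control array was above background it is given as at least 13.7-fold, the mOSM mean against the control level raised to each array's floor. The floor of an array is its lowest signal among probes above background and lay between 5.39 and 5.96. Without background correction the difference was 2.51. Between the genotypes, the KO effect minus the WT effect of mOSM at 6 h was -4.47 ± 0.64, or -2.47 without background correction.

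**Figure D1:**
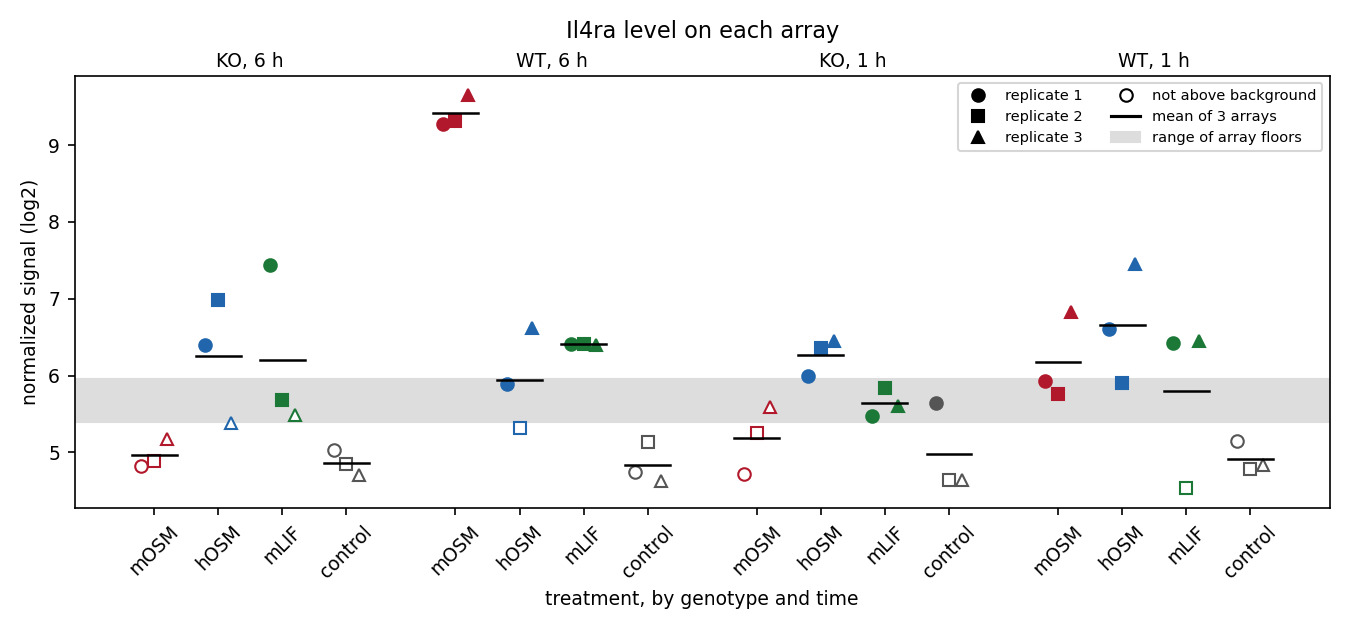
Il4ra level (normalized log2 signal, vertical axis) on each of the 48 arrays, by treatment within genotype and time. Marker shape gives the replicate culture, open markers are arrays not above background, bars are means of 3 arrays and the grey band spans the array floors from 5.39 to 5.96; the WT mOSM 6 h arrays lie at 9.28 to 9.65 and all other arrays at or below 7.46.

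With the ligands that signal through LIFR, Il4ra arrays were a mixture of low levels and levels under background. At 6 h the level was 6.40, 6.98 and 5.38 in KO cultures given hOSM and 7.44, 5.69 and 5.49 in KO cultures given mLIF, against the KO controls above. In each of these KO groups 2 of 3 arrays were above background, and every array lay above every KO control array. In WT cultures at 6 h the level was 5.88, 5.31 and 6.62 with hOSM, with 2 of 3 arrays above background. With mLIF it was 6.42, 6.41 and 6.40, with 3 of 3 above background. Both WT groups lay above the WT controls without overlap.

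These 6 h differences for Il4ra were 1.39 in KO hOSM, 1.35 in KO mLIF, 1.10 in WT hOSM and 1.57 in WT mLIF (SE 0.45 each), with limma adjusted p of 0.19, 0.21, 0.52 and 0.13. Arrays with the same genotype and replicate number were taken as a culture, and they deviated together from their group means (mean r = 0.659). With the culture as a replicate block the adjusted p became 0.031, 0.036, 0.12 and 0.017. Against the array floors the 4 mean differences are at least 1.49-fold, 1.45-fold, 1.24-fold and 1.71-fold, without allowance for their errors. Over the alternative settings described below the 4 differences fell as low as 0.48, 0.49, 0.36 and 0.52 on the log2 scale. The KO minus WT difference of these effects was 0.29 for hOSM (95% interval -1.01 to 1.58) and -0.22 for mLIF (-1.52 to 1.07), with limma adjusted p = 1 for both, in comparisons in which 0% of all genes passed.

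In KO cultures at 1 h the Il4ra level was 4.73, 5.25 and 5.59 with mOSM, 6.00, 6.36 and 6.45 with hOSM and 5.47, 5.83 and 5.61 with mLIF, against 5.65, 4.64 and 4.64 in controls. The hOSM arrays lay above all controls, and the mOSM and mLIF groups overlapped the control group, whose replicate 1 was its only array above background. No mOSM array was above background, against all 3 with hOSM and all 3 with mLIF. The mLIF arrays had detection p of 0.0085, 0.0032 and 0.0096, and mOSM replicate 3 had 0.013, so this count depends on the cut. With each array raised to its floor, the mLIF difference from control was 0.00065. The differences were 0.21 for mOSM, 1.29 for hOSM and 0.66 for mLIF (SE 0.45 each, limma adjusted p of 1, 0.59 and 1, and none passed with the block). The shares of all genes that passed were 0.00931%, 0.4% and 0.428% without the block and 0.00931%, 1.14% and 1.15% with it.

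At 1 h the highest Il4ra levels were in WT cultures given hOSM, at 6.61, 5.90 and 7.46, against 5.15, 4.78 and 4.84 in WT controls at 1 h. All 3 hOSM arrays and 0 of 3 controls were above background, and the groups did not overlap. The difference was 1.74 ± 0.45, at least 2.00-fold, with a limma adjusted p of 0.086 without the culture block and 0.016 with it. Over the alternative settings this difference fell as low as 0.63. Of all genes 0.466% passed in this comparison without the block and 1.45% with it. In WT cultures at 1 h, the level was 5.92, 5.76 and 6.83 with mOSM, all above background, and 6.43, 4.54 and 6.45 with mLIF, of which replicate 2 was below background. The mOSM difference was 1.25 ± 0.45 (limma adjusted p = 0.59, and 0.17 with the block), and the mLIF difference was 0.88 ± 0.45 (1, and 0.47 with the block). The mOSM arrays all exceeded the WT controls, whereas the mLIF arrays overlapped them. Of all genes 0.745% passed for mOSM (1.64% with the block) and 0.624% for mLIF (1.69% with the block). The KO minus WT difference of the mOSM effect at 1 h was -1.04 ± 0.64 (adjusted p = 1, 0.0745% of all genes passed).

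Ordered by mean level, WT mOSM at 6 h stood first for Il4ra with 9.41 ± 0.20, followed by WT hOSM at 1 h with 6.66 ± 0.78 (SD, n = 3 each). This gap of 2.75 was the only one between neighbouring groups in the order whose arrays did not overlap. Across all 48 arrays the lowest, median and highest Il4ra levels were 4.54, 5.67 and 9.65. The gene was above background on 27 arrays: on all arrays of 6 groups, on part of the arrays of 5 groups and on none of 5 groups. The groups with none were KO mOSM at 6 h, KO control at 6 h, WT control at 6 h, KO mOSM at 1 h and WT control at 1 h.

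Il13ra1, the partner chain, was 8.63, 9.09 and 11.02 in KO cultures given mOSM for 6 h, against 8.29, 8.67 and 9.44 in KO controls at 6 h. Replicate 3 was the highest of its group in both, and the groups overlapped. The difference was 0.78 ± 0.62 (limma adjusted p = 1, and 0.39 with the block), with each culture higher than its own control, by 0.34, 0.42 and 1.58. No gene passed for mOSM in KO cultures at 6 h (0% of all genes with limma, while 201 had an unadjusted p under 0.05).

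In WT cultures Il13ra1 was 11.63, 11.92 and 11.80 with mOSM for 6 h, against 8.51, 8.56 and 8.36 in WT controls at 6 h. The groups lay well apart and each varied little. The difference was 3.31 ± 0.62, or 9.91-fold. Both genes are among the 27.5% of all genes past limma's adjusted p threshold of 0.05 in this comparison, which the choice of the pair drew on. Between the genotypes, the KO minus WT difference of the mOSM effect was -2.53 ± 0.88, and -2.93 without the third KO culture. With all cultures and no block 9.7% of all genes passed in this comparison, and Il13ra1 was not among them. That call changed with the block and without the third KO culture.

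**Figure D2:**
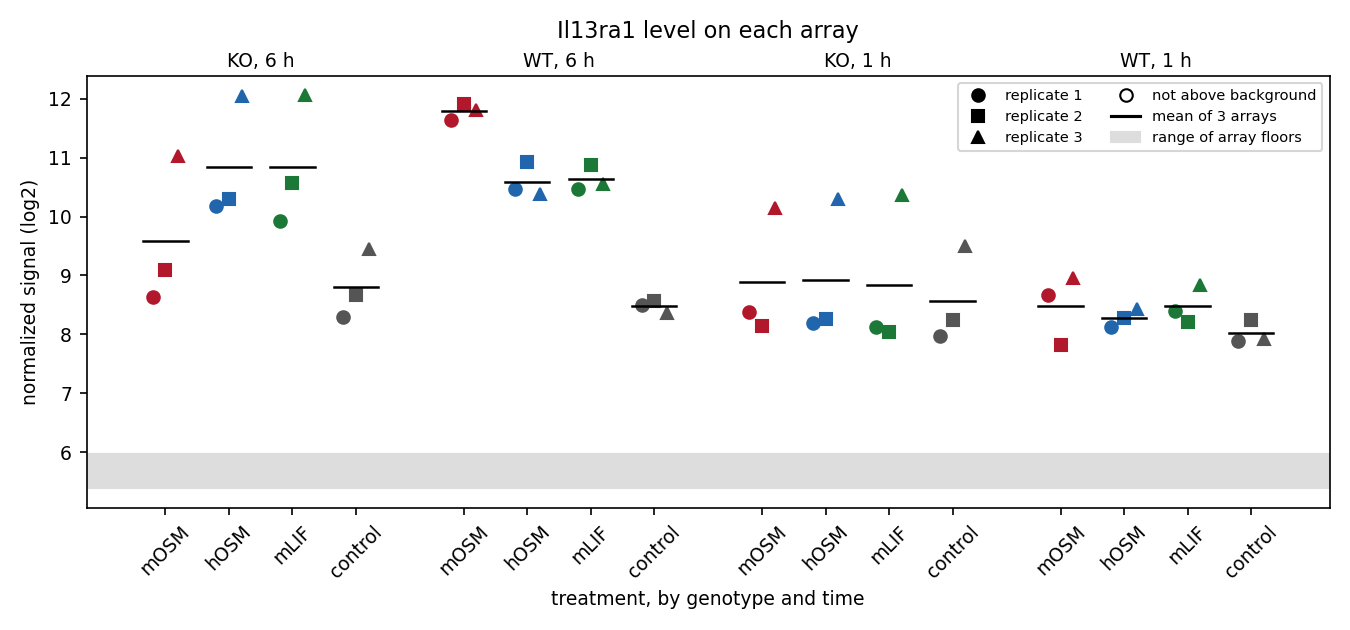
Il13ra1 level (normalized log2 signal, vertical axis) on each of the 48 arrays, by treatment within genotype and time, with markers, bars and band as for Il4ra. All arrays are above background, the third KO culture (triangles) is the highest of its KO group throughout, and the WT mOSM 6 h arrays lie at 11.63 to 11.92.

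At 6 h Il13ra1 was 10.18, 10.29 and 12.05 in KO cultures given hOSM and 9.92, 10.57 and 12.06 with mLIF, against the KO controls above. In WT cultures at 6 h it was 10.47, 10.92 and 10.38 with hOSM and 10.46, 10.87 and 10.55 with mLIF, against the WT controls above. All of these arrays lay above every 6 h control array of their genotype, and KO replicate 3 was the highest under both ligands. Within cultures the effects at 6 h were 1.89, 1.62 and 2.60 for KO hOSM, 1.63, 1.90 and 2.61 for KO mLIF, 1.97, 2.36 and 2.01 for WT hOSM and 1.96, 2.31 and 2.18 for WT mLIF. All of these effects were positive.

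The mean Il13ra1 differences were 2.04 in KO hOSM, 2.05 in KO mLIF, 2.11 in WT hOSM and 2.15 in WT mLIF (SE 0.62 each), or 4.11-fold, 4.13-fold, 4.33-fold and 4.45-fold. Their limma adjusted p was 0.14, 0.13, 0.14 and 0.13 without the culture block, and 2.2e-07, 1.8e-07, 1.6e-07 and 9.1e-08 with it. Neither gene passed without the block in these 4 comparisons, in which 0.829%, 0.922%, 0.661% and 0.466% of all genes passed. With the block Il13ra1 passed in all 4 and Il4ra in 3, against 6.99%, 7.89%, 5.62% and 5.47% of all genes. Without the third KO culture, and with no block, the KO differences were 1.75 for hOSM (limma adjusted p = 0.00046) and 1.76 for mLIF (0.00051). KO minus WT differences of the effects were -0.08 for hOSM (95% interval -1.86 to 1.71) and -0.11 for mLIF (-1.89 to 1.68), with limma adjusted p = 1 for both.

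At 1 h Il13ra1 was 8.38, 8.15 and 10.14 in KO cultures given mOSM, 8.20, 8.25 and 10.29 with hOSM and 8.12, 8.04 and 10.37 with mLIF, against 7.98, 8.24 and 9.50 in KO controls. In WT cultures at 1 h it was 8.66, 7.82 and 8.96 with mOSM, 8.12, 8.27 and 8.43 with hOSM and 8.39, 8.22 and 8.84 with mLIF, against 7.89, 8.24 and 7.92 in controls. Every ligand group overlapped its control group. The 6 differences were 0.26 to 0.46, and none passed limma's threshold with or without the block.

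**Figure D3:**
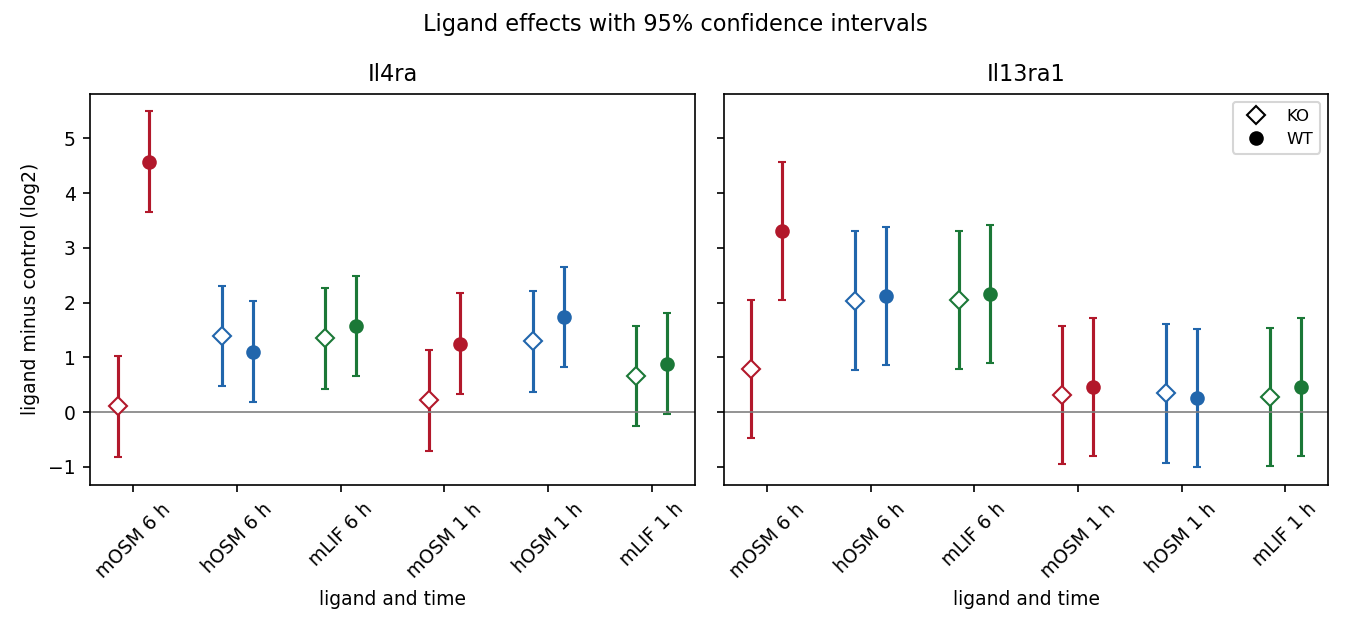
Ligand minus control difference (log2, vertical axis) for Il4ra (left) and Il13ra1 (right), by ligand and time on the horizontal axis, with 95% confidence intervals from limma without the culture block. Open diamonds are KO and filled circles WT; the KO mOSM effects at 6 h are 0.10 for Il4ra and 0.78 for Il13ra1, and the WT mOSM effects at 6 h, 4.57 and 3.31, are the highest in their panels.

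The Il13ra1 order of mean levels was headed by WT mOSM at 6 h with 11.78 ± 0.14, then KO mLIF at 6 h with 10.85 ± 1.10 and KO hOSM at 6 h with 10.84 ± 1.05 (SD, n = 3 each). Every pair of neighbours in this order overlapped. The third KO culture averaged 10.61 over its 8 arrays, against 8.71 and 8.91 in the other KO cultures and 9.27, 9.35 and 9.40 in the WT cultures. For Il4ra the third KO culture did not stand out, with 5.38 against 5.69 and 5.56 in the other KO cultures. Over all arrays the lowest, median and highest Il13ra1 levels were 7.82, 8.75 and 12.06.

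Within cultures the Il4ra effect of mOSM at 6 h was -0.20, 0.04 and 0.48 in KO and 4.53, 4.18 and 5.02 in WT, and that of Il13ra1 was 0.34, 0.42 and 1.58 in KO and 3.13, 3.36 and 3.44 in WT. The KO and WT cultures did not overlap for either gene. For Il4ra, the hOSM effect was 1.37, 2.13 and 0.68 in KO and 1.14, 0.18 and 1.99 in WT, and the mLIF effect was 2.41, 0.84 and 0.79 in KO and 1.67, 1.28 and 1.77 in WT. These overlapped between the genotypes and varied more between cultures than the effects on Il13ra1.

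**Figure D4:**
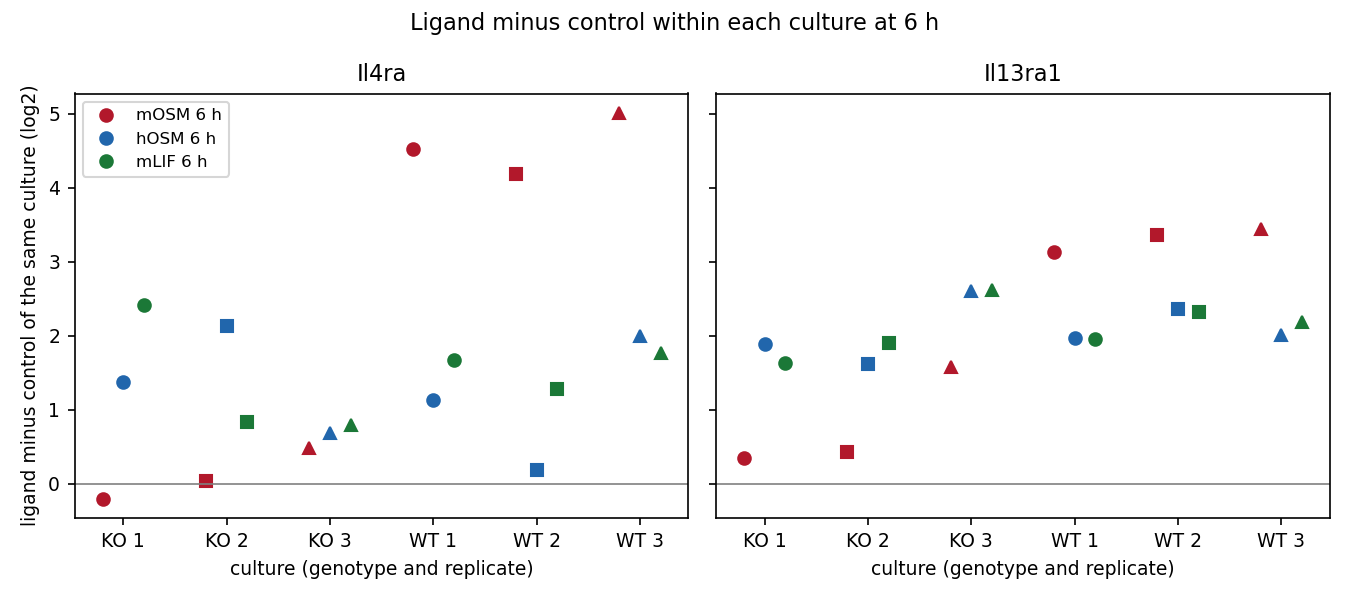
Ligand minus control of the same culture at 6 h (log2, vertical axis) in each KO and WT culture, for Il4ra (left) and Il13ra1 (right). Red is mOSM, blue hOSM and green mLIF; in KO cultures mOSM lies below both other ligands for both genes, while in WT cultures it lies above them.

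Set against the mean of hOSM and mLIF, mOSM at 6 h gave lower levels in KO cells and higher levels in WT cells for both genes. In KO cells the difference was -1.26 ± 0.39 for Il4ra (limma adjusted p = 0.26, and 0.037 with the block). For Il13ra1 in KO cells it was -1.26 ± 0.54 (0.68, and 0.00013 with the block). Without the block 0.447% of all genes passed in this comparison and neither member did, and with it 3.6% passed and both members did. In WT cells the difference was 3.24 ± 0.39 for Il4ra and 1.17 ± 0.54 for Il13ra1. Without the block 21.2% of all genes were past the threshold there, and Il13ra1 was not among them, a call that changed with the block. At 1 h the mOSM difference in KO cells was -0.76 ± 0.39 for Il4ra and 0.01 ± 0.54 for Il13ra1, and in WT cells it was -0.06 ± 0.39 and 0.10 ± 0.54, all with a limma adjusted p of 1 (0.307% of all genes passed in KO cells and 0% in WT cells).

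hOSM and mLIF did not differ past limma's threshold for either gene in any of the 4 combinations of genotype and time, and 0% of all genes did. For Il13ra1 at 6 h, hOSM minus mLIF was -0.01 in KO cells (95% interval -1.27 to 1.25) and -0.04 in WT cells (-1.30 to 1.22). For Il4ra it was 0.05 in KO cells (-0.87 to 0.96) and -0.47 in WT cells (-1.38 to 0.45) at 6 h. At 1 h the Il4ra difference was 0.63 in KO cells (-0.29 to 1.55) and 0.85 in WT cells (-0.07 to 1.77). The hOSM arrays lay above the mLIF arrays in KO cells at 1 h without overlap, and the WT arrays overlapped. These intervals leave room for differences of more than 1 log2 unit in either direction for Il13ra1.

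Effects at 6 h were set against those at 1 h. In KO cells the 6 h minus 1 h difference of the mOSM effect was -0.11 ± 0.64 for Il4ra and 0.47 ± 0.88 for Il13ra1 (limma adjusted p = 1 for both, 0% of all genes passed). In WT cells it was 3.32 ± 0.64 for Il4ra and 2.85 ± 0.88 for Il13ra1, where 13% of all genes passed. For Il13ra1 the same difference was 1.70 for KO hOSM, 1.77 for KO mLIF, 1.86 for WT hOSM and 1.69 for WT mLIF (SE 0.88 each). Each of these 4 had a limma adjusted p of 1 without the block and, with it, of 0.0044, 0.0022, 0.0017 and 0.0044. Of all genes 0.0745%, 0.13%, 0.0745% and 0.0931% passed without the block, and 1.05%, 1.33%, 0.94% and 1.48% with it. For Il4ra the 4 differences were 0.10, 0.68, -0.63 and 0.69 (SE 0.64 each), and none passed with or without the block. The effects of hOSM and mLIF on Il13ra1 were larger at 6 h than at 1 h in each of the 6 cultures, and no such difference in the Il4ra effect could be shown at this precision.

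Control cultures gave the level without added ligand. Il4ra differed between KO and WT controls by 0.02 at 6 h and 0.06 at 1 h, on arrays of which 1 of 12 was above background. Il13ra1 averaged 8.80 ± 0.59 in KO and 8.48 ± 0.10 in WT controls at 6 h, and 8.57 ± 0.82 in KO and 8.02 ± 0.19 in WT controls at 1 h (SD, n = 3 each). The KO minus WT difference was 0.32 ± 0.62 at 6 h and 0.56 ± 0.62 at 1 h (limma adjusted p = 1 for both). Controls at 6 h and 1 h did not differ past the threshold for either gene. In the control comparisons 0.0279% of all genes passed for KO minus WT at 6 h, 0.0186% at 1 h, 0.279% for 6 h minus 1 h in KO and 0.428% in WT.

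Macrophages also carry these receptor chains, and macrophage markers differed between the cultures. Of 9 listed markers 6 were measured; Ptprc and Itgam were above background on 0 arrays and Cd68 has no annotated probe. The mean level of the 6 markers was 6.81, 6.48 and 7.71 in KO cultures 1, 2 and 3 and 10.57, 8.60 and 6.71 in WT cultures 1, 2 and 3. It ranged from 6.13 to 7.76 in KO mOSM and 5.95 to 7.42 in KO controls at 6 h, and from 6.73 to 10.46 in WT mOSM and 6.56 to 10.57 in WT controls at 6 h. The mOSM effects at 6 h in WT cultures 1, 2 and 3 were 4.53, 4.18 and 5.02 for Il4ra and 3.13, 3.36 and 3.44 for Il13ra1. Of the 6 markers, Cd14 rose in WT cells with mOSM at 6 h (1.56, limma adjusted p = 0.00066), and in KO cells with hOSM (1.67, 0.007) and mLIF (1.68, 0.0065). With hOSM and mLIF in WT cells Cd14 differed by 0.94 and 1.17 (0.37 and 0.14, and 0.0086 and 9e-04 with the block). The other 5 did not pass in these comparisons. Without the block 27.5% of all genes passed with mOSM in WT cells. For hOSM and mLIF these shares were 0.829% and 0.922% in KO cells and 0.661% and 0.466% in WT cells. Among lymphoid and mast cell markers, Cd3e and Cpa3 were above background on 2 arrays each and Kit on 0, too few for a test, and Cd79a has no annotated probe. Of 4 endothelial markers, Pecam1 and Cdh5 were above background on 0 arrays, Kdr on 11 and Tek on 48. Tek differed by -1.56 in WT cells with mOSM at 6 h (limma adjusted p = 0.15, and 1.2e-06 with the block).

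Some markers of the osteoblasts themselves also moved with mOSM at 6 h in WT cells. Of the 6 measured osteoblast markers, Sp7, a transcription factor of osteoblast differentiation, fell by 2.62 on the log2 scale (limma adjusted p = 9.3e-05). Alpl, Bglap and Pth1r differed by -0.73, -1.13 and -0.64 (0.29, 0.72 and 0.3). Col1a1 and Ibsp differed by -0.12 and -0.20 (0.64 and 0.97). The share of all genes that passed with the block was not computed here, so no count with the block is given. Of the 4 measured osteocyte markers, Pdpn rose by 0.91 (0.0012), while Phex differed by -0.61 (0.51, and 0.0058 with the block). Dmp1 and Mepe, mostly under background, differed by 0.18 and 0.27 (0.9 and 0.46). Without the block 27.5% of all genes passed in this comparison. In KO cells with mOSM at 6 h, 0 of these markers and 0% of all genes passed, with Sp7 at -0.17 and Pdpn at 0.28. The part of any of these cell type markers in the Il4ra and Il13ra1 results was not tested.

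Of 13 genes listed for interleukin 4 and 13 signalling besides the 2 receptor chains, 11 could be tested. Il4 was above background on 0 of 48 arrays and Il2rg has no annotated probe. With mOSM at 6 h, 0 of 11 passed in KO cells, while 3 were higher (Jak2, Socs1 and, on its brightest probe, Jak1) and 1 lower (Tyk2) in WT cells. Over all genes 0% passed in KO cells and 27.5% in WT cells. The median difference of the 11 was 0.07 in KO and 0.28 in WT cells, against -0.0024 and -0.08 over all genes. The shares of all genes that passed with the block were not computed for these comparisons, so no counts with the block are given. Il13, the other cytokine, was above background on 23 arrays at levels near the floor, and differed by 0.21 in KO and 0.38 in WT cells (limma adjusted p of 1 and 0.24).

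Jak2, a kinase best known from other cytokine receptors, was 9.11 ± 0.33 with mOSM at 6 h and 9.02 ± 0.19 in controls in KO cells (SD, n = 3 each). In WT cells Jak2 rose to 11.42 ± 0.30 with mOSM against 9.17 ± 0.11 in controls, a difference of 2.25 ± 0.23 (limma adjusted p = 2.9e-09), and its other probe above background gave 2.36. Its KO minus WT difference was -2.16 ± 0.32 (2.3e-05). Jak1, the kinase bound to the Il4ra chain, differed by 1.62 ± 0.39 in WT cells on its brightest probe (0.0019). Its probes disagreed, with -2.06 on another probe above background on all 48 arrays and 0.39 on the third, and the mean of the probes gave -0.018, so no direction is given for Jak1. Tyk2, the kinase bound to the Il13ra1 chain, fell in WT cells by 0.60 on the log2 scale (SE 0.19, 0.018), a call lost with the mean of its probes (0.059), the beadchip as a term (0.089), the compared groups alone (0.064), and without WT culture 1 (0.18), WT mOSM replicate 3 (0.13) or WT control replicate 1 (0.14). Jak3, which serves the common gamma chain, differed by 0.63 ± 0.41 (limma adjusted p = 0.28, and 0.026 with the block).

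Stat6, the transcription factor of the pathway, was 7.77 with mOSM and 8.17 in controls in KO cells at 6 h, a difference of -0.40 ± 0.22 (limma adjusted p = 1). In WT cells it was 8.08 with mOSM and 7.96 in controls, a difference of 0.12 ± 0.22 (0.74). Il13ra2, a decoy chain that binds interleukin 13, was above background on 10 of 48 arrays and on none of the 6 WT mOSM and control arrays at 6 h. Socs1, a feedback inhibitor of JAK kinases, rose in WT cells with mOSM at 1 h by 2.85 ± 0.30 (limma adjusted p = 1.3e-07). At 6 h it differed by 0.97 ± 0.30 (0.015), at least 1.28-fold, with 2 of 3 mOSM and 0 of 3 control arrays above background. This 6 h call was lost without background correction (0.057) and without WT mOSM replicate 2 (0.054), WT mOSM replicate 3 (0.10) or WT control replicate 1 (0.051). Irs2, an adaptor of insulin and interleukin 4 receptors, rose with mOSM at 1 h in WT cells by 1.14 ± 0.23 (0.0042), a call lost without WT culture 1 (0.38), with the beadchip as a term (0.46) and with the compared groups alone (0.20). Socs1 and Irs2 were the 2 of 11 listed genes that passed with mOSM in WT cells at 1 h, where 0.745% of all genes passed.

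**Figure D5:**
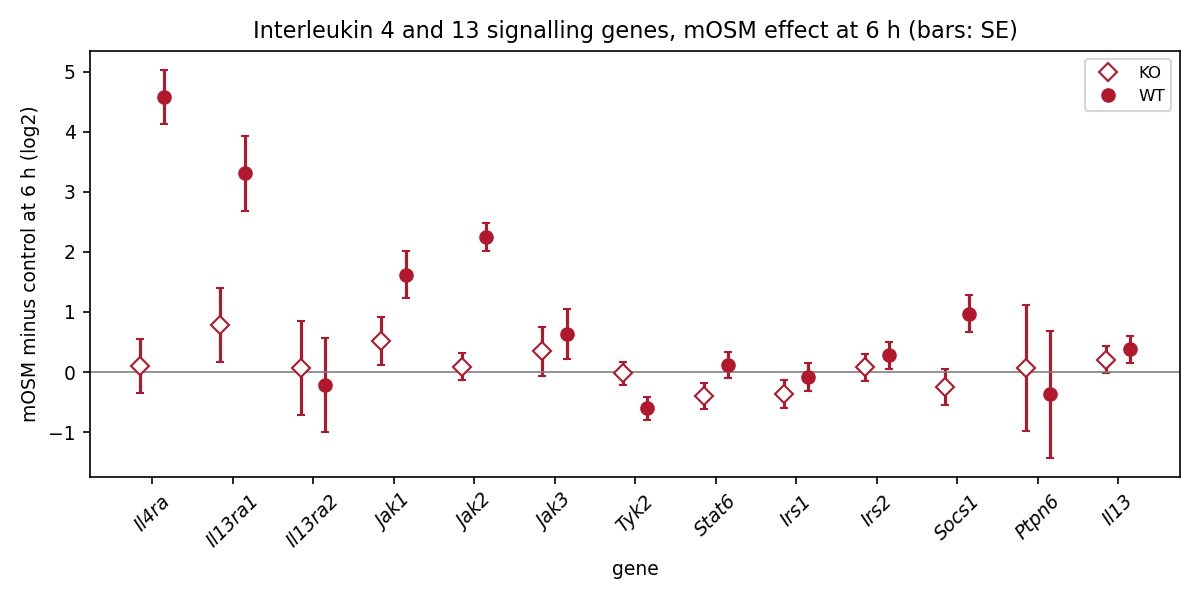
mOSM minus control difference at 6 h (log2, vertical axis; bars are SE) for Il4ra, Il13ra1 and the 11 tested genes of interleukin 4 and 13 signalling. Open diamonds are KO and filled circles WT; Il4ra, Il13ra1 and Jak2 stand highest in WT at 4.57, 3.31 and 2.25, and the Jak1 value is that of its brightest probe.

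Genes known as STAT6 targets in other cells were followed as a list of 14, of which 7 could be tested. This list, like the other gene lists, was chosen with earlier results of these data known, so its counts are descriptions. With mOSM at 6 h, 0 of 7 passed in KO cells, while 4 were higher and 0 lower in WT cells, against 0% and 27.5% of all genes. The median was 0.04 in KO and 1.46 in WT cells, against -0.0024 and -0.08 over all genes. With the block Vcam1, an adhesion molecule, was also lower in WT cells (-0.30, limma adjusted p = 0.049 with the block and 0.35 without it). Tgm2, tissue transglutaminase, rose to 13.87 ± 0.18 in WT cells with mOSM, against 9.97 ± 0.27 in controls (SD, n = 3 each), a difference of 3.90 ± 0.37 (limma adjusted p = 8.1e-10). Tgm2 also rose with hOSM and mLIF at 6 h, by 3.10 and 3.15 in KO cells and by 2.72 and 2.99 in WT cells. The other Tgm2 probe, above background on 4 arrays, gave 0.48. Cish, a feedback inhibitor also known as a STAT5 target, rose by 1.99 ± 0.34 in WT cells at 6 h (2.2e-05) and by 2.88 ± 0.34 at 1 h (7.3e-07). Arg1, arginase, rose by 1.46 ± 0.18 (1.3e-07), at least 1.38-fold, with 3 of 3 mOSM and 0 of 3 control arrays above background. Ccl11, the chemokine eotaxin, rose by 3.24 ± 1.11 (0.026), a call lost without WT culture 1 (0.18), with the beadchip as a term (0.14), or without WT mOSM replicate 1 (0.083), WT mOSM replicate 2 (0.071) or WT control replicate 3 (0.10). Of the other 7, Retnla and Ccl17 were above background on 1 array each and Chil3, Ccl22, Ccl24, Fcer2a and Pdcd1lg2 on none.

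Other chains of the same receptor class served for comparison. Of 16 listed, 7 could be tested, and with mOSM at 6 h 0 passed in KO cells, while 1 was higher and 0 were lower in WT cells, against 0% and 27.5% of all genes. The median difference was -0.13 in KO and -0.15 in WT cells, against -0.0024 and -0.08 over all genes. Il15ra, the specific chain of the interleukin 15 receptor, was 7.35 ± 0.07 with mOSM and 5.28 ± 0.13 in controls in WT cells (SD, n = 3 each), a difference of 2.07 ± 0.28 (limma adjusted p = 6.2e-07) and at least 3.29-fold, as 0 of 3 control arrays were above background. The KO minus WT difference of its mOSM effect was -1.47 ± 0.40 (0.013). Among the others, Ghr, the growth hormone receptor, differed by -0.71 ± 0.37 in WT cells (0.16, and 2.3e-06 with the block). Il3ra and Csf2ra, chains for interleukin 3 and GM-CSF, were above background on all 48 arrays and differed by -0.18 and -0.15 in WT cells.

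Across the 16 group means, the genes whose pattern was most like that of Il4ra were Sting1 (Pearson r = 0.958, and 0.816 over the 48 arrays), Smim3 (0.958 and 0.756), Selp (0.953 and 0.833), Riok3 (0.953 and 0.635) and Ptpn12 (0.951 and 0.812). In WT cells Sting1 was 9.26 with mOSM and 5.66 in controls at 6 h, and Selp was 8.57 and 4.82. For Il13ra1 they were Cpne8 (0.981 and 0.953), Slc1a4 (0.978 and 0.935), Tgfbi (0.977 and 0.841), Cyb561 (0.977 and 0.816) and Eif4e3 (0.975 and 0.929). Il4ra and Il13ra1 correlated with each other at 0.652 over the groups and 0.495 over the arrays, which places Il13ra1 at 1098 among the genes most like Il4ra. All of these values share the arrays and their normalization and are descriptions.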

How the data were processed

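RNA was measured on 48 bead arrays, 8 for each of 6 cultures as defined by genotype and replicate number. The deposited signal file holds bead intensity on a linear scale, not normalized, and the detection p-value of each probe as deposited by the authors. A second table holds log2 values that the authors had normalized between arrays; per the submitters' processing notes BeadStudio and limma were used, with versions not given in the sources used here, and likewise no genome build. Per array the median signal was 116 to 170, with 14231 to 16767 probes below a detection p of 0.01.

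Signals of 46237 probes were background-corrected and quantile normalized with neqc (offset 16) in limma 3.58.1 under R 4.3.3. The largest departure from the deposited log2 values was 0.0338. Probes were kept if their detection p was below 0.01 on 3 or more arrays, with the brightest probe per gene (10739 genes). limma was fitted to 16 group means, with Benjamini-Hochberg adjustment over all genes of each of 36 comparisons and a threshold of 0.05. Only 3 arrays per group limit the precision. Samples were grouped by their labels.

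As pairing check, arrays of one genotype and replicate number deviated together from their group means (mean r = 0.659, lowest 0.302 over 168 pairs), whereas arrays of one genotype and other numbers gave -0.32, so the culture was used as a replicate block beside the comparisons it changed. Alternatives were another scaling, the deposited values, no background correction, other probe filters, the mean of probes, the block, the beadchip, the compared groups alone, and leaving out a culture or an array. The fit without the block was tested on simulated data whose noise was independent between arrays. That test cannot speak to the block or to deviations shared by the arrays of a culture.

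The members and gene lists were chosen with earlier results of these data known. Genes named besides them are those of the signalling list described throughout, the up to 4 genes per list that changed most in WT cells given mOSM, of those past the threshold, and the 5 most like each member. Vcam1, Ghr, Il3ra, Csf2ra, Il13, the cell type markers with values and the listed genes without a call were named after their values were seen. No protein sequences or probe positions were used here.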

Additional observations from a re-analysis of the deposited data

Results flagged for a closer look

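The mOSM effect on Il4ra at 6 h stood out because it differed between the genotypes, by -4.47 ± 0.64 (KO minus WT, SE). By culture the effect was -0.20 to 0.48 in KO and 4.18 to 5.02 in WT. In WT cells the mOSM effect also differed between 6 h and 1 h, by 3.32 ± 0.64 for Il4ra and by 2.85 ± 0.88 for Il13ra1, with the 6 h effect larger in 3 of 3 cultures for both genes. For Il13ra1 this difference was not past the threshold in some of the settings given below. These 3 differences hold the arrays on which the pair was chosen, so they are given as values with no p-value and are not independent evidence. No explanation was tested.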

How the results depend on the processing

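Comparisons of Il4ra and Il13ra1 that passed or missed the threshold under all settings are not listed. With the culture as a replicate block, these differences came past the threshold at unchanged size. For Il13ra1 they were the 6 h effects 2.04 (KO hOSM), 2.05 (KO mLIF), 2.11 (WT hOSM) and 2.15 (WT mLIF), mOSM minus the other ligands at 6 h of -1.26 (KO), and the time differences 1.70 (KO hOSM), 1.77 (KO mLIF), 1.86 (WT hOSM) and 1.69 (WT mLIF). For Il4ra they were 1.39 (KO hOSM 6 h), 1.35 (KO mLIF 6 h), 1.57 (WT mLIF 6 h), 1.74 (WT hOSM 1 h) and -1.26 (KO mOSM minus the other ligands at 6 h). Differences built on the WT mOSM 6 h arrays are given as values only, and with the block were -2.53 (KO minus WT) and 1.17 (WT mOSM minus the other ligands) for Il13ra1. The block changed no other call of the 2 genes. With the compared groups fitted alone, the Il13ra1 values 2.11, 2.15, 1.86 and 1.69 in WT cells and the Il4ra value 1.57 also passed. Without the third KO culture, Il13ra1 values of 1.75, 1.76, -1.38 and 1.79 (KO mLIF time difference) passed. The KO minus WT value of Il13ra1 for mOSM at 6 h was -2.93 without that culture, -2.27 without background correction and -3.25 to -2.05 with single arrays left out. The Il4ra value 1.74 (WT hOSM 1 h) also passed with the beadchip as a term, and ranged from 1.34 to 2.11 with single arrays left out, passing without WT hOSM 1 h replicate 2. The Il13ra1 time difference of mOSM in WT cells was 3.09 without WT culture 1, a setting chosen after seeing the data, and 2.51 to 3.09 with single arrays left out. It was past the threshold with all arrays, but not without WT culture 1 nor in 4 of 12 fits without a single array. Without background correction the Il4ra values were smaller: 2.51 (WT mOSM 6 h), -2.47 (KO minus WT), 2.07 (WT mOSM minus the other ligands) and 2.10 (WT mOSM time difference). Over the settings the lowest Il4ra effects at 6 h were 0.48 (KO hOSM), 0.49 (KO mLIF), 0.36 (WT hOSM) and 0.52 (WT mLIF). For WT hOSM at 1 h the lowest was 0.63. Jak1 in WT cells with mOSM at 6 h reversed to -0.018 with the mean of its probes. The causes were not tested. Values past the threshold in neither fit changed sign 33 times over the settings (24 differences, at most 0.69 in size) and 72 times with single arrays left out. Under median scaling the median of all genes was -0.19 in WT mOSM at 6 h, against -0.08 with quantile normalization, and 0.30 against 0.0045 in KO minus WT mLIF at 6 h. It turned no direction past the threshold. Signals near background limit Il4ra outside WT mOSM at 6 h, and 3 arrays per group limit both genes.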
